A study of Danio rerio with 24 samples.

Results

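RNA levels of 10 genes of fibroblast growth factor (FGF) signalling, chosen by gene symbol, were followed. They are the ligand genes fgf3, fgf8a, fgf17 and fgf24 and the phosphatase genes dusp4 and dusp6. The others are the Sprouty genes spry2 and spry4 and the ETS transcription factor genes etv4 and etv5b. All 10 were found once each among the 31901 genes of both deposited expression tables. RNA was sequenced from whole wild-type zebrafish embryos in 6 groups of 4 libraries, 24 in all. All groups were kept in 0.1% dimethyl sulfoxide (DMSO), with 0 or 40 µM of the brominated flame retardant tetrabromobisphenol A (TBBPA) added from 0.75 hours post fertilization (hpf), and were collected at 2, 3.5 or 4.5 hpf. The groups without TBBPA are called DMSO. The labels do not say whether the 4 libraries of a group came from separate clutches or exposures, so p-values measure only the spread between these libraries.

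FGF ligands are secreted proteins that bind receptor tyrosine kinases together with heparan sulfate and start the Ras and ERK kinase cascade. The cascade induces the ETS factors etv4 and etv5b, which carry the response to target genes, and also its own inhibitors: Sprouty proteins, which block the cascade inside the cell, and the dual-specificity phosphatase Dusp6, which removes phosphate from ERK. In the zebrafish blastula these genes are known from the margin of the embryo, where FGF signals act in the formation of mesoderm and in dorsoventral patterning.

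Reads assigned to genes, recovered from the deposited values, came to 10.6 to 20.02 M (mega) per library. Group means were 13.6 M in TBBPA and 13.4 in DMSO at 2 hpf, 16.1 and 13.7 at 3.5 hpf, and 15.7 and 15.5 at 4.5 hpf. Replicates correlated at Pearson r of 0.991 to 0.997 in the 36 pairs. The embryo label was checked against fixed marker lists. The 6 maternal markers were present in every group, with summed levels of 2012 to 2909 FPKM (reads per kilobase of exon, divided by a size factor of the library), and the 9 markers of later tissues summed to at most 2.09 FPKM. The organizer marker gsc was listed at 0 in every group, while the other 5 organizer markers were read at 3.5 and 4.5 hpf.

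At 4.5 hpf 7 of the 10 genes were lower in TBBPA than in DMSO, at a time when 35.0% of all genes tested and 83.8% of those near 0 at 2 hpf and present at 4.5 hpf were lower. The level of fgf17 was 4.97 ± 1.19 FPKM (SD, n = 4) in TBBPA and 28.9 ± 4.0 in DMSO, that of fgf3 1.27 ± 0.442 and 9.10 ± 1.31, and that of fgf8a 0.282 ± 0.146 and 3.68 ± 0.520. The Sprouty genes spry2 and spry4 stood 3.68-fold and 3.91-fold lower and etv5b 1.91-fold lower, while the difference of dusp6 did not pass the test. At 3.5 hpf fgf17, spry4 and dusp6 were already lower in TBBPA, and etv5b was not detectably different. In DMSO fgf3, fgf8a, fgf17, the Sproutys and the ETS factors rose from 3.5 to 4.5 hpf, where 35.8% of all genes tested rose. Of the genes near 0 at 2 hpf and present at 4.5 hpf, 87.2% rose.

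**Figure D1:**
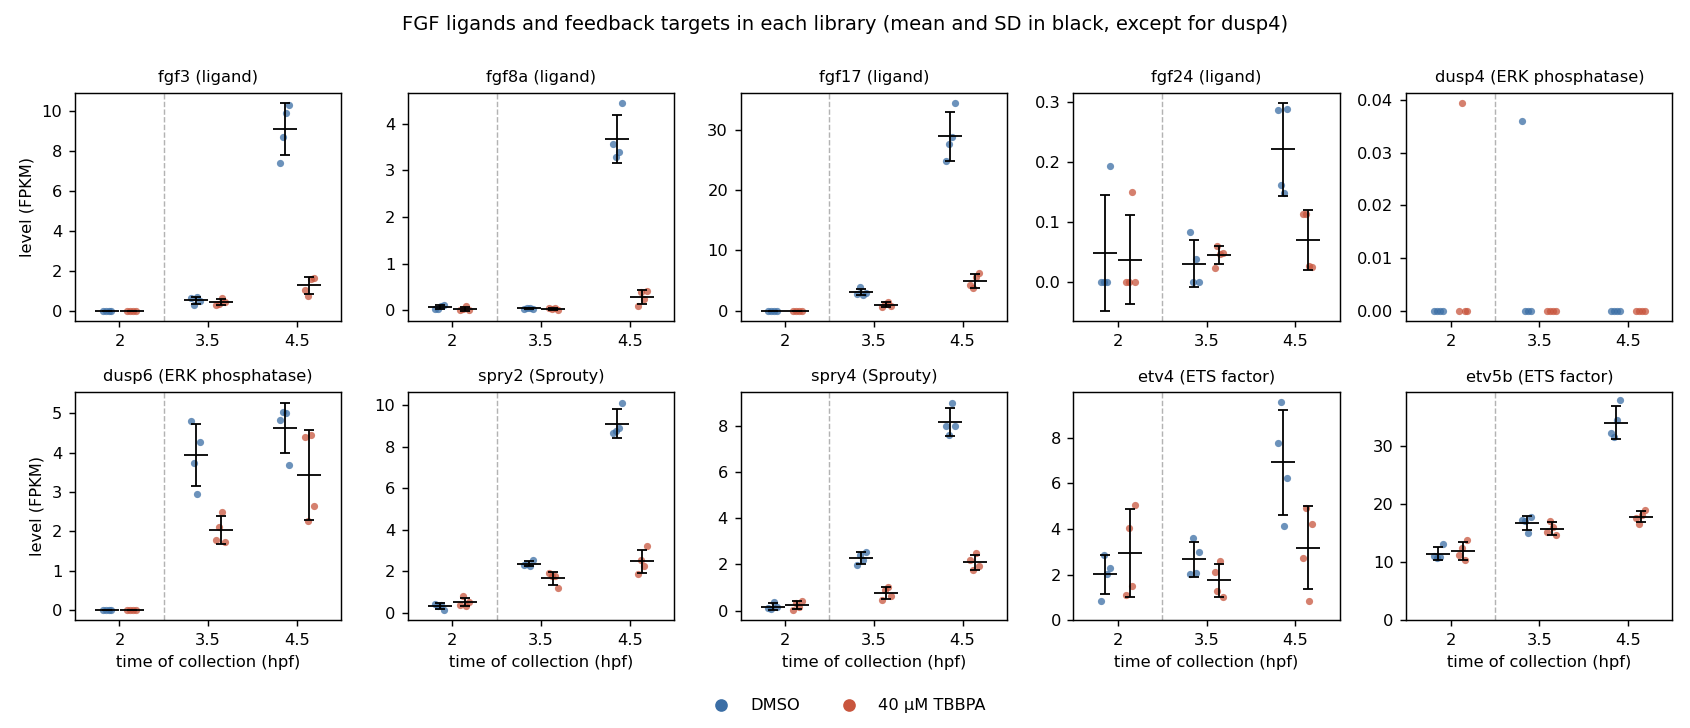
Level of each of the 10 genes in FPKM against the time of collection in hours post fertilization. Each point is 1 library (4 per group, DMSO blue, TBBPA red), and black bars give the group mean and SD (not drawn for dusp4, with 2 reads in all). The vertical scale differs between panels, and the dashed line separates 2 hpf, whose table was scaled separately. At 4.5 hpf the DMSO libraries of fgf3, fgf8a, fgf17, spry2, spry4 and etv5b all lie above the TBBPA libraries.

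Positions are as the deposited tables give them, and their genome build is not given in the sources used here. The ligand gene fgf3 (ENSDARG00000101540) spans 54605640 to 54609108 on the plus strand of chromosome 7, fgf8a (ENSDARG00000003399) spans 28495419 to 28501985 on the plus strand of chromosome 13, fgf17 (ENSDARG00000102778) spans 52732107 to 52745168 on the minus strand of chromosome 8, and fgf24 (ENSDARG00000037677) spans 5506983 to 5546497 on the minus strand of chromosome 14. The phosphatase genes dusp4 (ENSDARG00000044688) and dusp6 (ENSDARG00000070914) span 20113470 to 20120543 on the minus strand of chromosome 21 and 18326298 to 18330503 on the minus strand of chromosome 25. The Sprouty gene spry2 (ENSDARG00000078308) spans 5273481 to 5277583 on the plus strand of chromosome 1, and spry4 (ENSDARG00000068732) spans 44684577 to 44691068 on the plus strand of chromosome 21. The ETS genes etv4 (ENSDARG00000018303) and etv5b (ENSDARG00000044511) span 27536095 to 27568694 on the plus strand of chromosome 12 and 14030903 to 14040161 on the minus strand of chromosome 6. The exons used to set the levels sum to between 1816 bases for dusp4 and 4118 bases for etv5b. An antisense gene overlaps fgf8a (CR925797.1, group means of 0 to 0.0309 FPKM) and another overlaps etv4 (AL833789.1, group means of 0.0200 to 0.216 FPKM). Strand-specific counting is not known for these libraries, so reads of these pairs cannot be told apart.

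At 2 hpf, in the cleavage period, embryos run on maternal transcripts, and of the 10 genes only the ETS factors reached 1 FPKM in any library. The level of etv5b, the most abundant of the 10 at this time, was 11, 10.8, 10.9 and 13.1 FPKM in the DMSO libraries and 11.3, 12.5, 10.3 and 13.9 in the TBBPA libraries. That of etv4 was 0.853, 2.88, 2.02 and 2.29 FPKM in DMSO and 1.12, 4.06, 1.51 and 5.05 in TBBPA. The treatment groups overlapped for both genes, while 4.48% of all genes had groups that did not.

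No read of fgf3, fgf17 or dusp6 was found in the 8 libraries of 2 hpf. For fgf3 a count of 0 allows a level of up to 0.030 FPKM in DMSO and 0.029 in TBBPA, taking 3 reads over a group and counting error only. The Sprouty genes were low, with spry2 at 0.133 to 0.446 FPKM in DMSO and 0.341 to 0.810 in TBBPA, and spry4 at 0.0668 to 0.363 and 0.0214 to 0.401. The ligand fgf8a lay at 0.0327 to 0.103 FPKM in DMSO and 0 to 0.0953 in TBBPA. The ligand fgf24, which in zebrafish acts with fgf8a in posterior mesoderm, had reads in 1 library of each group, and dusp4, a nuclear ERK phosphatase, in 1 TBBPA library.

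The test at 2 hpf covered etv4 and etv5b, the members that reached the filter of 1 FPKM in 4 libraries, and neither passed. Over all genes 0% passed in this comparison (0 of 11061 by limma with Benjamini-Hochberg adjustment, 795 at an unadjusted p under 0.05, and 0 by limma voom on the recovered reads). The difference in log2(FPKM+1), TBBPA minus DMSO, was 0.06 for etv5b with a 95% confidence interval of -0.18 to 0.29 (limma, adjusted p = 0.920). DMSO replicate 4, the library least like the others of its group (r of 0.991 with each), was the highest for etv5b, and without it the difference was 0.12 (limma, adjusted p = 0.808). For etv4 it was 0.30 with a standard error of 0.34 (limma, adjusted p = 0.857).

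At 3.5 hpf, after zygotic transcription has begun, the ligand transcripts were mostly fgf17, a ligand of the same subfamily as fgf8a. Its level was 2.86, 3.90, 2.69 and 2.93 FPKM in DMSO and 0.620, 1.11, 1.5 and 0.861 in TBBPA. Every TBBPA library lay below every DMSO library, and the ratio of means was 3.03-fold. The log2(FPKM+1) difference was -1.03 with a standard error of 0.14 (limma, Benjamini-Hochberg adjusted p = 0.00117).

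The other ligands were below 1 FPKM at 3.5 hpf. The level of fgf3 was 0.624, 0.304, 0.679 and 0.502 FPKM in DMSO and 0.300, 0.342, 0.620 and 0.459 in TBBPA, from 55 reads in each group. The groups overlapped, and fgf3 stayed under the filter of the test. The ligand fgf8a, known in zebrafish for its part in the midbrain-hindbrain boundary and in dorsoventral patterning, rested on 5 reads over the 4 DMSO libraries and 5 over the 4 TBBPA libraries. The level of fgf24 was at most 0.0826 FPKM in DMSO and 0.0604 in TBBPA.

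Among the feedback inhibitors at 3.5 hpf, spry4 was at 1.95, 2.41, 2.18 and 2.53 FPKM in DMSO and at 0.444, 0.874, 1.03 and 0.619 in TBBPA. The groups did not overlap, and the mean level was 3.05-fold lower in TBBPA (log2 difference -0.92, standard error 0.12, limma adjusted p = 0.000843). The level of dusp6 was 4.80, 3.74, 2.96 and 4.28 FPKM in DMSO and 1.78, 2.10, 2.49 and 1.73 in TBBPA. It too was lower in every TBBPA library, 1.95-fold on the means (log2 difference -0.70, standard error 0.13, limma adjusted p = 0.00564).

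The second Sprouty gene, spry2, was at 2.31, 2.36, 2.27 and 2.53 FPKM in DMSO at 3.5 hpf and at 1.93, 1.78, 1.77 and 1.21 in TBBPA. The groups did not overlap, but the step was small, 1.42-fold on the means. The log2 difference of -0.34 with a standard error of 0.10 lay at the threshold (limma, adjusted p = 0.0496). This call was lost under 13 of the alternatives, among them each of the 8 fits without 1 library (limma, adjusted p = 0.0549 to 0.121) and the fit without a filter (limma, adjusted p = 0.128). The phosphatase dusp4 was read once, in a DMSO library.

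The ETS factors differed less at 3.5 hpf. The level of etv5b was 17.3, 17.1, 15 and 17.8 FPKM in DMSO and 15.3, 17.2, 16.1 and 14.6 in TBBPA, with overlapping groups. Its log2 difference was -0.08 with a 95% confidence interval of -0.22 to 0.06 (limma, adjusted p = 0.478). The level of etv4 was 2.02, 3.62, 2.09 and 2.98 FPKM in DMSO and 2.10, 1.27, 2.60 and 1.02 in TBBPA. These groups overlapped as well (log2 difference -0.44, standard error 0.20, limma adjusted p = 0.209).

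In all, 6 of the 10 genes were tested at 3.5 hpf and 4 were lower in TBBPA, where 5.34% of the 11859 genes tested were lower and 6.67% higher. TBBPA and DMSO libraries were fully separated for 4 of the 6, against 17.2% of all genes. The median log2 difference of the 6 was -0.57, beside 0.01 over all genes tested. Both fgf17 and spry4 reached the filter through the DMSO libraries, where they are high, so their share among the tested genes is not evidence of its own. Another background is the class of zygotic-only genes, here those with a mean below 0.5 FPKM at 2 hpf and of 2 FPKM or more at 4.5 hpf, over DMSO and TBBPA libraries alike. Of 458 zygotic-only genes tested, 48.3% were lower and 3.93% higher, with a median of -0.52. The class holds 655 genes, among them fgf3, fgf17, dusp6, spry2 and spry4. Its name rests on this cut alone, and spry2 and spry4 had reads in every library of 2 hpf. By contrast fgf8a missed the class with 1.98 FPKM at 4.5 hpf, the mean of 3.68 in DMSO and 0.282 in TBBPA.

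At 4.5 hpf, near the end of the blastula period, fgf17 led the ligands. Its level was 24.8, 27.6, 28.7 and 34.4 FPKM in DMSO and 4.23, 3.73, 5.68 and 6.25 in TBBPA. The highest TBBPA library lay well below the lowest DMSO library, a 5.81-fold lower mean (log2 difference -2.34, standard error 0.14, limma adjusted p = 3.75e-07).

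The ligand fgf3, which in zebrafish acts together with fgf8a in the embryo, was at 7.43, 8.72, 9.90 and 10.3 FPKM in DMSO and at 1.06, 0.752, 1.62 and 1.67 in TBBPA. The groups did not overlap, and the mean was 7.15-fold lower in TBBPA (log2 difference -2.16, standard error 0.15, limma adjusted p = 8.44e-07). The level of fgf8a was 3.57, 3.29, 3.40 and 4.44 FPKM in DMSO and 0.0968, 0.392, 0.232 and 0.405 in TBBPA. It had 482 reads over the DMSO libraries against 40 over the TBBPA libraries, a 13.1-fold lower mean level. The pseudocount of 1 compresses a gene this low, and its log2 difference was -1.87 with a standard error of 0.11 (limma, adjusted p = 3.96e-07).

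The fourth ligand, fgf24, stayed below the filter, at 0.287, 0.161, 0.148 and 0.288 FPKM in DMSO and 0.114, 0.114, 0.0273 and 0.0254 in TBBPA. It rested on 32 and 11 reads, with 4 to 13 per DMSO library and 1 to 5 per TBBPA library, so the read counts overlapped. In FPKM every TBBPA library was below every DMSO library. In the fit without a filter on low values its log2 difference at 4.5 hpf was -0.19 (limma, adjusted p = 0.0206). That fit called 5218 of 24733 genes lower.

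Summed over the 4 ligands, the level at 4.5 hpf was 36.1 to 49.4 FPKM in the DMSO libraries and 4.99 to 8.35 in the TBBPA libraries. At 3.5 hpf the sum was 3.44 to 4.26 FPKM in DMSO and 0.995 to 2.21 in TBBPA. The share of each ligand in the sum was described but not tested. In TBBPA fgf8a rests on 4 to 15 reads per library at 4.5 hpf, and fgf3 on 9 to 21 at 3.5 hpf. At 4.5 hpf fgf17 made up 68.1 to 69.5% of the sum in DMSO and 74.8 to 76.9% in TBBPA, and fgf8a 8.07 to 9.88% and 1.76 to 7.87%. The share of fgf3 was 20.6 to 23.5% in DMSO and 15.1 to 21.4% in TBBPA, with overlap. At 3.5 hpf fgf17 made up 78.0 to 91.5% in DMSO and 62.3 to 71.8% in TBBPA.

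**Figure D2:**
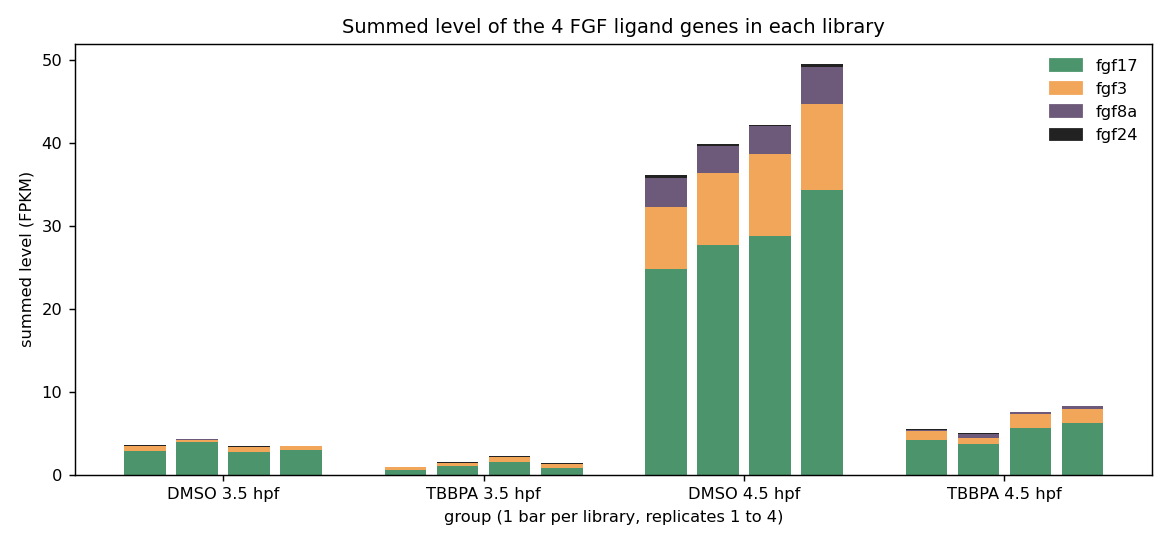
Summed level of fgf17, fgf3, fgf8a and fgf24 in FPKM, 1 stacked bar for each library of the 4 groups of 3.5 and 4.5 hpf. The DMSO libraries of 4.5 hpf reach 36.1 to 49.4 FPKM, the TBBPA libraries of 4.5 hpf 4.99 to 8.35, and fgf17 is the largest segment in every bar.

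The Sprouty genes were lower in TBBPA at 4.5 hpf by like amounts. The level of spry2 was 8.64, 8.75, 8.90 and 10.1 FPKM in DMSO and 1.89, 2.56, 2.26 and 3.21 in TBBPA. That of spry4 was 8.0, 7.61, 9.0 and 7.99 FPKM in DMSO and 2.17, 1.76, 2.5 and 1.91 in TBBPA. Neither gene showed any overlap between the groups. The log2 differences were -1.55 for spry2 (standard error 0.11, limma adjusted p = 1.19e-06) and -1.57 for spry4 (standard error 0.09, limma adjusted p = 3.18e-07).

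The phosphatase dusp6 stood apart from the Sproutys in its values. Its level was 4.83, 5.03, 5.01 and 3.69 FPKM in DMSO at 4.5 hpf and 4.39, 2.25, 4.46 and 2.64 in TBBPA. TBBPA replicates 1 and 3 lay above the lowest DMSO library. The mean was 1.35-fold lower in TBBPA, and the log2 difference of -0.38 did not pass, with a 95% confidence interval of -0.77 to 0.02 (limma, adjusted p = 0.0821). It passed without TBBPA replicate 1 (limma, adjusted p = 0.038), without TBBPA replicate 3 (limma, adjusted p = 0.0341) and with the replicate number as a block (limma, adjusted p = 0.0451). The other phosphatase, dusp4, had 0 reads in the 8 libraries of 4.5 hpf.

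The ETS factor etv5b was at 32.2, 31.7, 34.6 and 37.9 FPKM in DMSO at 4.5 hpf and at 17.6, 16.7, 18.1 and 19.0 in TBBPA. The groups were far apart relative to their spread, 1.91-fold on the means (log2 difference -0.89, standard error 0.06, limma adjusted p = 9.54e-07). The level of etv4 was 7.74, 9.55, 4.14 and 6.21 FPKM in DMSO and 2.74, 4.93, 0.854 and 4.22 in TBBPA. TBBPA replicates 2 and 4 lay above DMSO replicate 3, the lowest of its group. Its mean was 2.17-fold lower in TBBPA and passed the test narrowly (log2 difference -1.0, standard error 0.34, limma adjusted p = 0.0255). The call was lost without a filter (0.065), with TPM scaling (0.0522), and without TBBPA replicate 1 (0.0518), DMSO replicate 1 (0.0598) or DMSO replicate 2 (0.0679), all limma adjusted p. The spread of etv4 was wide in every group, with a coefficient of variation of 28.6 to 65.4%.

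Of the 10 genes, 8 were tested at 4.5 hpf, and 7 were lower and 0 higher in TBBPA, where 35.0% of the 12324 genes tested were lower and 33.1% higher. The libraries of both treatments were fully separated for 6 of the 8, against 63.4% of all genes. The median log2 difference of the 8 was -1.56, beside -0.02 over all genes. Of 654 zygotic-only genes tested, 83.8% were lower and 3.82% higher, with a median of -1.42. The class is set partly by the 4.5 hpf levels under test. Set from the DMSO libraries alone (859 genes), 86.3% were lower with a median of -1.31, and set from the TBBPA libraries alone (358 genes), 72.1% with a median of -1.16, 2 classes added after the data were seen. The filter was met by fgf8a through the DMSO libraries alone, and fgf3 and etv4, each with 3 TBBPA libraries at 1 FPKM or more, also needed them, so the count of members that passed is not evidence of its own. Scaling each library to an equal sum (TPM) moved the median of all genes to 0.13 and scaling to total counts to 0.10, and the split of all calls to 5392 higher against 2798 lower and 5091 against 3049. Under TPM scaling the 8 genes had a median of -1.42, and none changed direction under any scaling.

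**Figure D3:**
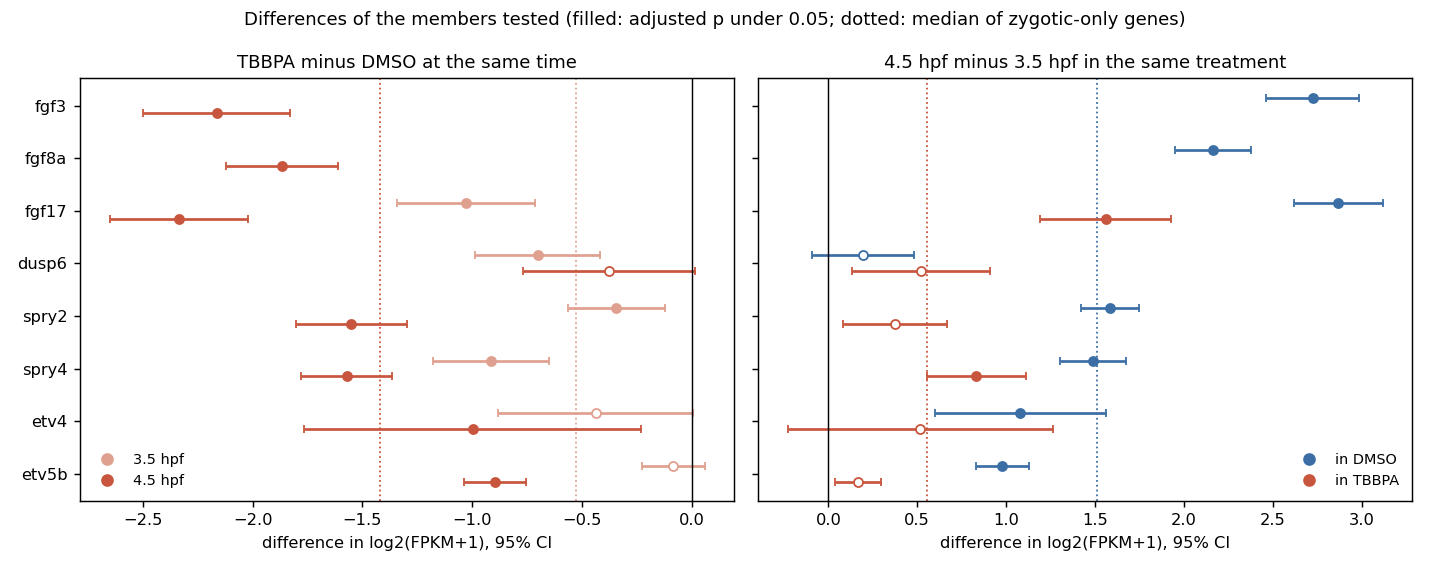
Differences in log2(FPKM+1) with 95% confidence intervals for the members tested, TBBPA minus DMSO on the left (3.5 hpf pale, 4.5 hpf dark) and 4.5 minus 3.5 hpf on the right (DMSO blue, TBBPA red). Filled points have an adjusted p under 0.05, and dotted lines give the median of the zygotic-only genes in the same comparison. On the left fgf3, fgf8a, fgf17, spry2 and spry4 at 4.5 hpf lie beyond the dotted line of -1.42, and etv4, etv5b and dusp6 fall short of it.

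Markers of embryonic regions were compared between the same groups. At 4.5 hpf the 7 markers of the margin, the mesendoderm-forming region where FGF genes are known to be expressed, summed to 209 to 291 FPKM in DMSO and 40.4 to 61.9 in TBBPA, with 6 of 7 lower by limma. The 6 markers of the dorsal organizer summed to 143 to 196 and 25.3 to 37.7 FPKM, with 3 of the 4 tested lower and gsc at 0. The 7 markers of the enveloping layer summed to 306 to 398 and 21.4 to 33.0 FPKM, all 7 lower. The 4 of the yolk syncytial layer summed to 56.0 to 80.6 and 18.3 to 27.1 FPKM, with 3 of the 3 tested lower. Beside these counts, 35.0% of all genes tested and 83.8% of the zygotic-only genes were lower at 4.5 hpf. The 6 maternal markers, which are not of a region, split at 4.5 hpf. By limma 4 were higher and 2 lower in TBBPA (median log2 difference 1.21), where 33.1% of all genes tested were higher. At 3.5 hpf the margin markers summed to 15.6 to 19.4 FPKM in DMSO and 10.03 to 16.02 in TBBPA, with overlap and 1 of 4 tested lower. The enveloping layer markers then summed to 41.0 to 49.2 and 8.06 to 12.2 FPKM, with 3 of 3 tested lower, and the organizer markers to 22.4 to 26.02 and 15.1 to 18.2, with 2 of 4 lower. The yolk syncytial markers overlapped as well, at 6.25 to 7.38 and 4.60 to 8.93 FPKM, with 0 of 2 tested lower. Over all genes tested at 3.5 hpf 5.34% were lower, and of the zygotic-only genes 48.3%. In whole embryos fewer cells of a type and less RNA per cell cannot be told apart, and the part of these markers in the FGF results was not tested.

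From 3.5 to 4.5 hpf in DMSO, 7 of the 8 genes tested rose, where 35.8% of 12354 genes rose and 34.3% fell. The median log2 difference of the 8 was 1.54, beside 0.02 over all genes and 1.51 over the 654 zygotic-only genes tested, of which 87.2% rose and 2.60% fell. That class asks for 2 FPKM or more at 4.5 hpf, which favours genes that rose. Set from the TBBPA libraries alone, 78.2% of the class rose in DMSO, and set from the DMSO libraries alone, 88.5%. The times were fully separated for 7 of the 8, against 64.8% of all genes. Both fgf3 and fgf8a had 0 DMSO libraries at 1 FPKM or more at 3.5 hpf and were tested through 4.5 hpf, where they are high, so this count and median are not evidence of their own. The comparison shares its 4.5 hpf DMSO libraries with the treatment comparison at that time. The ligand fgf17 rose 9.34-fold on the means (log2 difference 2.87, standard error 0.11, limma adjusted p = 1.20e-08) and fgf3 17.3-fold (2.72, standard error 0.12, limma adjusted p = 2.22e-08). The ratio of 93.4-fold for fgf8a rests on 5 reads at 3.5 hpf.

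For the Sproutys and ETS factors in DMSO the ratio of means over the same hour was 3.85-fold for spry2, 3.59-fold for spry4, 2.58-fold for etv4 and 2.03-fold for etv5b, each past the test by limma (adjusted p = 0.0011 for etv4 and at most 4.95e-07 for the others). The exception was dusp6, with a log2 difference of 0.20 and a 95% confidence interval of -0.09 to 0.48 (limma, adjusted p = 0.200). Its level at 3.5 hpf, 3.95 ± 0.788 FPKM (SD, n = 4), was already close to its 4.64 ± 0.639 at 4.5 hpf.

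In TBBPA, 6 of the 10 genes were tested between these times and 2 rose, where 6.15% of 11877 genes rose and 8.60% fell. Both that rose, fgf17 and spry4, met the filter through the 4.5 hpf libraries, where they are high, with 2 and 1 TBBPA libraries at 1 FPKM or more at 3.5 hpf. Of 478 zygotic-only genes tested, 53.6% rose and 0.628% fell. With that class set from the DMSO libraries alone 51.3% rose, and from the TBBPA libraries alone 58.9%. Among the genes tested, the times were fully separated for the 2 that rose, against 21.3% of all genes. Under the filter, fgf3 was at 0.300 to 0.620 FPKM at 3.5 hpf and 0.752 to 1.67 at 4.5 hpf. The level of fgf8a was 0 to 0.0507 and 0.0968 to 0.405 FPKM, from 5 and 40 reads. Both were thus higher in every TBBPA library of 4.5 hpf, while fgf24 overlapped and dusp4 had 0 reads. The ligand fgf17 rose 4.87-fold on the means (log2 difference 1.56, standard error 0.17, limma adjusted p = 0.000625) and the inhibitor spry4 2.81-fold (0.83, standard error 0.12, limma adjusted p = 0.00224). The log2 differences of the other genes tested were 0.52 for dusp6, 0.38 for spry2, 0.52 for etv4 and 0.17 for etv5b (limma, adjusted p = 0.0748, 0.0853, 0.341 and 0.0853). A fit over all 4 groups called 6 members instead of 2, adding fgf3 (0.65, limma adjusted p = 0.00408), fgf8a (0.30, 0.0389), dusp6 (0.0417) and spry2 (0.0258). It tested 8 members instead of 6, and over all 12780 genes tested it called 924 higher and 1059 lower. Its filter was met by fgf3 and fgf8a only with the DMSO libraries of 4.5 hpf, which are not compared here. The count of 6 is thus not evidence of its own.

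Whether the TBBPA effect differed between the times was tested by the interaction over the 16 libraries of 3.5 and 4.5 hpf. Of 8 members tested, 6 passed with a more negative log2 difference at 4.5 than at 3.5 hpf. Of 12780 genes 26.6% passed in this direction and 26.3% in the other. Both fgf3 and fgf8a met the filter only with the DMSO libraries of 4.5 hpf, where they are high, so this count is not evidence of its own. Of the 655 zygotic-only genes, 68.4% passed with a more negative effect and 1.83% with a more positive one. The interaction was -2.07 for fgf3 (standard error 0.19, limma adjusted p = 3.16e-07), -1.86 for fgf8a (0.13, 2.41e-08), -1.31 for fgf17 (0.21, 8.09e-05), -1.21 for spry2 (0.15, 6.05e-06), -0.81 for etv5b (0.09, 2.10e-06) and -0.66 for spry4 (0.15, 0.00161). With 5 reads per group at 3.5 hpf, fgf8a could show no effect at that time, and its interaction restates its difference of -1.87 at 4.5 hpf.

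On the scale of recovered reads, which compresses low levels less, the interaction was not past the test for spry4 (-0.29, limma voom adjusted p = 0.339) or fgf17 (-0.88, limma voom adjusted p = 0.0519). A pseudocount of 0.1 gave -0.39 for spry4 (limma, adjusted p = 0.234). The ratio of means of spry4 was 3.05-fold at 3.5 hpf and 3.91-fold at 4.5 hpf. For etv4 the interaction was -0.56 (limma, adjusted p = 0.302). For dusp6 it was 0.33, the only one above 0 among the 8, and did not pass either (limma, adjusted p = 0.257).

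TBBPA embryos of 4.5 hpf were also set against DMSO embryos of 3.5 hpf, which places exposed embryos beside vehicle embryos of an earlier stage. Each of these groups also enters a comparison above. None of 6 members tested passed by limma, 1 had an unadjusted p under 0.05, and limma voom called 1. The filter left out fgf3, fgf8a, fgf24 and dusp4. Of these, fgf3 was higher in every older TBBPA library, at 0.752 to 1.67 FPKM against 0.304 to 0.679 in the younger DMSO libraries. So was fgf8a, at 0.0968 to 0.405 against 0.0292 to 0.0570 FPKM, from 40 reads against 5. The libraries of fgf24 and dusp4 overlapped. The share of all genes without overlap was not worked out for this comparison, so the separation of fgf3 and fgf8a is a description only. Over all 11947 genes 3.55% were higher and 4.53% lower, with 2778 genes at an unadjusted p under 0.05. Of 534 zygotic-only genes tested, 18.2% were higher and 14.6% lower. The mean level of spry2 was 2.48 ± 0.560 FPKM (SD, n = 4) in the older TBBPA embryos and 2.37 ± 0.116 in the younger DMSO embryos, with a log2 difference of 0.03 (95% confidence interval -0.22 to 0.29). For spry4 the means were 2.09 ± 0.324 and 2.27 ± 0.255 FPKM (log2 difference -0.08, interval -0.31 to 0.14). For etv5b they were 17.9 ± 0.964 and 16.8 ± 1.21 FPKM (0.08, interval -0.05 to 0.22).

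The intervals of dusp6 (-0.59 to 0.23) and etv4 (-0.63 to 0.79) were wider and leave room for larger differences. For fgf17 the means were 4.97 and 3.09 FPKM (log2 difference 0.53, interval 0.21 to 0.86, limma adjusted p = 0.0527). It passed with TPM scaling (0.0486), by limma voom (0.0483), in the fit over all 4 groups (0.0371), and without TBBPA replicate 2 (0.0281) or DMSO replicate 2 (0.0483). In the fit over all 4 groups, which called 1182 of 12780 genes, fgf3 passed as well (0.56, limma adjusted p = 0.0169). There fgf3 met the filter only with the DMSO libraries of 4.5 hpf, which are not part of this comparison. It did not pass in the fit without a filter (limma, adjusted p = 0.105). Without DMSO replicate 1, 2 or 4 the count of all genes called fell from 965 to 604, 560 and 581.

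Of 20 other FGF ligand genes listed, 0 reached the filter in any comparison. The highest group mean was that of fgf4, 1.08 FPKM in DMSO at 4.5 hpf beside 0.0974 in TBBPA, and its highest library was at 1.69. This level is above that of fgf24 and rests on 235 reads over the 24 libraries. It is named here after its values were seen.

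Among 7 FGF receptor genes, 3 were tested at 4.5 hpf and 2 were lower in TBBPA, where 35.0% of all genes were. The receptor fgfr4 was at 39.1 ± 2.74 FPKM (SD, n = 4) in DMSO and 15.5 ± 2.25 in TBBPA (log2 difference -1.29, standard error 0.09, limma adjusted p = 9.89e-07). The receptor fgfr1b was at 16.9 ± 3.31 and 6.58 ± 0.304 FPKM (-1.22, standard error 0.12, limma adjusted p = 6.49e-06). For neither did the libraries overlap. At 2 hpf fgfr4 had group means of 0 FPKM in DMSO and 0.0365 in TBBPA, so it meets the definition of the zygotic-only genes. Of those tested at 4.5 hpf, 83.8% were lower, with a median of -1.42. With 7.29 and 6.86 FPKM at 2 hpf, fgfr1b does not meet it. At 3.5 hpf fgfr4 was lower in TBBPA as well (-0.88, limma adjusted p = 0.00531), while fgfr1b was higher (0.29, limma adjusted p = 0.0464), a call lost under 10 alternatives. The third receptor, fgfr1a, was lower at 3.5 hpf, at 13.7 FPKM in DMSO and 11.4 in TBBPA (-0.25, limma adjusted p = 0.0400), a call lost under 10 alternatives. It was at 13.2 FPKM in DMSO and 12.6 in TBBPA at 4.5 hpf and did not pass there.

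Genes of the Ras and ERK relay pass the signal inside the cell. Of 24 listed genes, 22 gene rows were tested at 4.5 hpf, 6 were higher and 12 lower, beside 33.1% and 35.0% of all genes, with a median of -0.16. With TPM scaling the split turned to 8 higher and 4 lower, with a median of 0.0032. The docking adaptor frs2b was at 57.1 FPKM in TBBPA and 37.9 in DMSO (log2 difference 0.57, limma adjusted p = 9.64e-06), and the Ras activator sos2 at 35.8 and 22.7 (0.64, limma adjusted p = 5.26e-06). The kinase raf1a (1 of 2 gene rows with this symbol) was at 8.26 and 5.78 FPKM (0.45, limma adjusted p = 0.00174). Its relative araf was at 3.97 in TBBPA and 7.29 in DMSO (-0.74, limma adjusted p = 7.70e-06). At 3.5 hpf, 1 of 21 was higher and 0 were lower, beside 6.67% and 5.34% of all genes.

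Of 14 other listed feedback inhibitors, 10 were tested at 4.5 hpf, 4 were higher and 3 lower, shares near the 33.1% and 35.0% of all genes. Their median was 0.11, and 0.25 with TPM scaling. The transmembrane inhibitor il17rd, also called Sef, was at 30.8 FPKM in TBBPA and 20.4 in DMSO (log2 difference 0.58, limma adjusted p = 6.13e-06), and the Ras inactivator rasa1a at 46.3 and 32.2 (0.51, limma adjusted p = 1.26e-05). The phosphatase dusp8a was at 9.51 and 6.25 FPKM (0.54, limma adjusted p = 0.000438). The phosphatase dusp1 was lower, at 33.6 FPKM in TBBPA and 54.3 in DMSO (-0.68, limma adjusted p = 4.79e-06), and was lower at 3.5 hpf too (-0.28, limma adjusted p = 0.00319).

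Of 10 other transcription factors that respond to FGF, 7 were tested at 4.5 hpf, 6 were lower and 1 higher in TBBPA, with a median of -1.41, beside 35.0% lower over all genes and 83.8% lower with a median of -1.42 over the zygotic-only genes. The T-box gene tbxta, a mesoderm regulator, was at 2.22 ± 0.686 FPKM (SD, n = 4) in TBBPA and 17.8 ± 2.98 in DMSO (log2 difference -2.56, limma adjusted p = 5.11e-07). Its relative tbx16 was at 32.1 ± 7.79 and 171 ± 24.9 FPKM (-2.40, limma adjusted p = 5.79e-07). Both are also on the list of margin markers. The Myc family gene mych was at 99.5 ± 8.61 and 317 ± 25.8 FPKM (-1.66, limma adjusted p = 7.05e-08), and the immediate-early gene ier2a at 9.30 and 26.3 (-1.41, limma adjusted p = 9.38e-07). At 3.5 hpf, 4 of 7 tested were lower, beside 5.34% of all genes and 48.3% of the zygotic-only genes. Among the 4 was ier2a (-0.99, limma adjusted p = 4.20e-05). The gene that was higher at 4.5 hpf, named after its values were seen, was etv5a, the third ETS gene of the family tested there, at 3.22 FPKM in TBBPA and 1.25 in DMSO (0.88, limma adjusted p = 0.000707).

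Heparan sulfate enzymes and cofactors help FGF bind its receptor. Of 19 listed genes 18 were found and 14 tested at 4.5 hpf, 3 higher and 8 lower, beside 33.1% and 35.0% of all genes. Their median was -0.21, and TPM scaling gave 4 higher and 6 lower, median -0.041. The sulfotransferase hs6st2 was at 18.4 FPKM in TBBPA and 59.6 in DMSO (log2 difference -1.64, limma adjusted p = 1.08e-07). The membrane protein gene flrt3, whose product promotes FGF signalling in Xenopus, was at 3.09 and 12.8 FPKM (-1.77, limma adjusted p = 5.20e-06), and the glypican gpc4 at 23.3 and 50.5 (-1.08, limma adjusted p = 7.27e-07). The chain-building enzyme ext1b was higher in TBBPA, at 13.97 FPKM against 8.98 (0.58, limma adjusted p = 4.73e-05). At 2 hpf no gene of any of these lists passed.

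**Figure D4:**
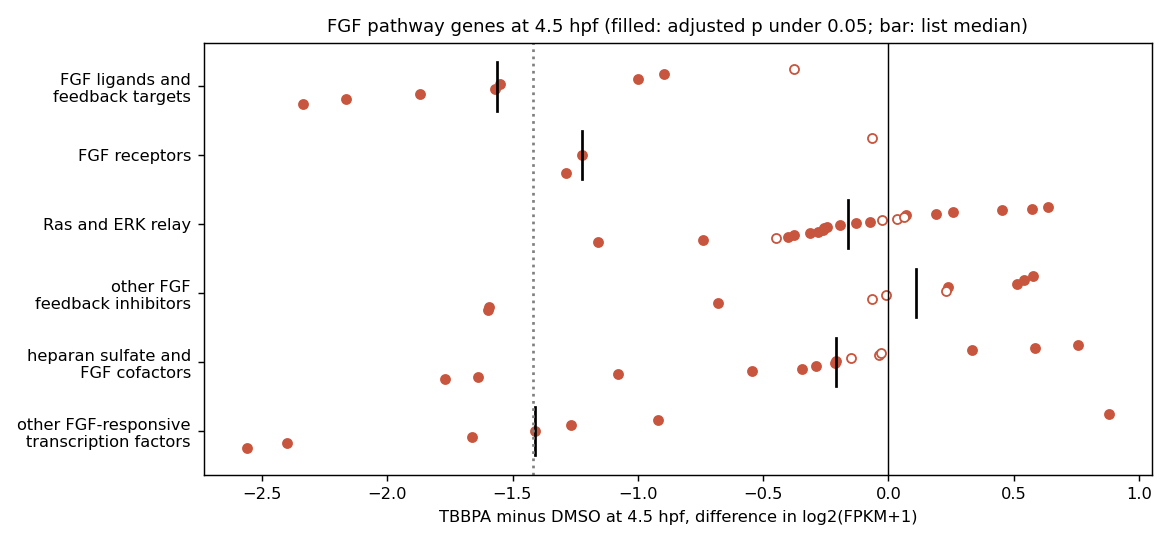
Differences in log2(FPKM+1) at 4.5 hpf, TBBPA minus DMSO, for each tested gene of the FGF ligands and feedback targets and of 5 other pathway lists, 1 point per gene. Filled points have an adjusted p under 0.05, black bars give list medians, and the dotted line gives the median of zygotic-only genes. The receptors and the FGF-responsive factors have medians of -1.22 and -1.41, and the relay and inhibitor lists lie around 0, at -0.16 (0.0032 with TPM scaling) and 0.11 (0.25 with TPM scaling).

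Across the 16 libraries of 3.5 and 4.5 hpf, fgf3, fgf8a, fgf17, spry2, spry4 and etv5b followed each other, with Pearson r of 0.907 to 0.981 between pairs on log2(FPKM+1). Pairs with dusp6 had r of 0.426 to 0.781, and the remaining pairs with etv4 0.710 to 0.812. The points share the treatment and time groups, so these values describe the group pattern. Many other genes shared it: of 7424 protein-coding genes compared, 878 had r over 0.95 with fgf3, 927 with fgf8a, 458 with fgf17, 789 with spry2, 206 with spry4 and 881 with etv5b.

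The genes most like fgf3 in pattern were ca9 (r = 0.994), ccne2 (0.994) and pimr138 (0.993), over 16 libraries. Those most like fgf8a were alcamb (0.996), setb (0.996) and hnrnpaba (0.995), and those named for fgf17 were hspb1 and PPP1R3G (each 0.996). For spry2 they were rdh10b (0.990), ralab (0.989) and znf1048 (0.989), for spry4 blf (0.993), znf1063 (0.992) and slc25a55a (0.992), and for etv5b cstf3 (0.992), ssbp3b (0.991) and esrp1 (0.991). No gene reached 0.9 with dusp6 or etv4. The nearest were tagapa (0.873), nfe2 (0.870) and cited2 (0.865) for dusp6, and SERP1 (0.895), sub1a (0.882) and lsm3 (0.860) for etv4.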

How the data were processed

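Per the labels and the file headers, the authors deposited FPKM in 2 tables: 8 libraries (2 hpf) are in the early table and 16 (3.5 and 4.5 hpf) in the late table. The submitters' processing notes name HISAT2 2.0.5 for alignment and featureCounts 1.5.0-p3 for counting. No genome build or annotation release is given in the sources used here, and the labels' library protocol describes directional and non-directional kits together. In each library, FPKM times gene length was a whole multiple of 1 step for 100% of genes, to within 0.001 steps. These multiples were taken as reads, and their step followed a size factor set within each table, so no test crosses from 2 hpf to later times. Reads per library bear on low genes most.

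Genes reaching 1 FPKM in 4 or more of the fitted libraries were tested with limma 3.58.1 (R 4.3.3, trended moderated variances) on log2(FPKM+1), 2-sided, on the whole table, adjusted by Benjamini-Hochberg, with 0.05 as the threshold. Counts and shares of genes given as higher, lower, risen or fallen are of genes past this threshold. The pseudocount of 1 understates ratios of genes near or under 1 FPKM. Scripts were tested on simulated data. Alternatives were pseudocounts of 0.1 and 5, no filter, 3 scalings, limma voom on the recovered reads (8397 genes called at 4.5 hpf, 8392 by the FPKM fit), a replicate block, 1 fit over 4 groups, and each library left out with the gene set kept.

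The 10 members are all named, with up to 4 genes per pathway list (largest difference at 4.5 hpf past the threshold, at least 5 FPKM in 1 group) and the 3 genes most alike in pattern to each tested member, of which 1 is not reported here. The members and lists were chosen with earlier results of these data known. No sequences are printed.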

Additional observations from a re-analysis of the deposited data

Results flagged for a closer look

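A screen for single libraries far from their group, by the gap to the nearest library over the whole range (Dixon's 95% critical value for 4 libraries), covered 50 groups with any spread and marked 6, where chance marks about 1 in 20. The lowest DMSO library of dusp6 at 4.5 hpf, replicate 4, had a ratio of 0.851. The highest DMSO library of etv5b at 2 hpf, also replicate 4, had 0.899. The other marks come from genes near 0 with 1 library above 0, each with a ratio of 1.0: dusp4 in DMSO replicate 1 at 3.5 hpf and in TBBPA replicate 2 at 2 hpf, and fgf24 in DMSO replicate 4 and TBBPA replicate 3 at 2 hpf.

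The log2 difference between TBBPA and DMSO was not the same at 3.5 and 4.5 hpf by limma's interaction for fgf3 (-2.07), fgf8a (-1.86), fgf17 (-1.31), spry2 (-1.21), etv5b (-0.81) and spry4 (-0.66), more negative at 4.5 hpf in each. For fgf8a, with 5 reads per group at 3.5 hpf, this restates the 4.5 hpf difference. On the recovered reads the interaction did not pass for spry4 (-0.29, limma voom adjusted p = 0.339) or fgf17 (-0.88, limma voom adjusted p = 0.0519).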

How the results depend on the processing

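Over the 44 results of single members, 761 of 802 alternative values kept the direction and the side of the threshold, 21 lost the call, 15 gained one and 5 changed sign. None of the sign changes touched a call: without TBBPA replicate 4, etv5b at 2 hpf came to -0.011 (up to 0.119 without TBBPA replicate 3). Of TBBPA at 4.5 hpf against DMSO at 3.5 hpf, etv4 came to -0.13, -0.07 and -0.0054 without TBBPA replicate 2, TBBPA replicate 4 and DMSO replicate 1 (up to 0.430 without TBBPA replicate 3), and spry2 to -0.0629 without TBBPA replicate 4 (up to 0.119 without TBBPA replicate 1). In that comparison the members called went from 0 to 1 with TPM scaling, 1 with voom and 2 in the fit over all 4 groups. With a library left out they were 0 to 1. Over all genes these fits called 972 of 11947, 1152 of 11947, 1182 of 12780 and 560 to 872 of 11947. From 3.5 to 4.5 hpf in TBBPA the members called went from 2 to 6 in the fit over all 4 groups and 2 to 3 with a library left out. Over all genes these called 1983 of 12780 and 1130 to 1770 of 11877. The fit over all 4 groups tested 8 members instead of 6 in both comparisons. With a library left out, members called at 4.5 hpf were 6 to 8, where 7930 to 8212 of 12324 genes were called. At 3.5 hpf they were 3, where 933 to 1518 of 11859 genes were called. The cause of these shifts was not tested. Without TBBPA replicate 2 the genes called at 3.5 hpf fell from 1424 to 933. From 3.5 to 4.5 hpf in TBBPA they fell from 1753 to 1150 and 1130 without TBBPA replicates 1 and 2 of 3.5 hpf. Of 476 alternative values of named pathway genes, 441 kept direction and call. Calls were lost for fgfr1a, fgfr1b, hs6st2 and tbxta at 3.5 hpf, and fgfr1a at 4.5 hpf, not called, came to 0.0974 when scaled as TPM and 0.0655 when scaled by total counts.

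Correlations of deviations between libraries with the same replicate number were -0.0723 to 0.193, over 0.1 for some pairs of replicates 1 and 4 but not for every pair, so the numbers were not read as pairing. TBBPA at 3.5 and 4.5 hpf came closest, with 3 of 4 libraries best matched by their own number. With the replicate block the members called were 0 at 2 hpf, 3 at 3.5 hpf, 8 at 4.5 hpf, 7 over time in DMSO, 3 over time in TBBPA, 0 for TBBPA at 4.5 hpf against DMSO at 3.5 hpf, and 6 in the interaction. Over all genes the block fits called, in the same order, 0 of 11061, 1502 of 11859, 8293 of 12324, 8567 of 12354, 1967 of 11877, 797 of 11947 and 6863 of 12780. Depth limits fgf8a, fgf24 and dusp4 before 4.5 hpf, where they rest on a few reads each. At 4.5 hpf it also limits dusp4 (0 reads) and fgf24 (4 to 13 reads per DMSO library, 1 to 5 per TBBPA library). The same holds for fgf8a in TBBPA at that time (4 to 15 reads per library).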
